A study of Mus musculus with 6 samples.

Results

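A set of 10 genes of the Notch pathway were examined in bEnd.3 cells, a mouse brain endothelial line, with and without added mitochondria. They are the receptors Notch1, Notch2, Notch3 and Notch4, the ligands Jag1, Jag2, Dll1 and Dll4, and the targets Hes1 and Hey1. All 10 were found by name among the 55401 genes of the deposited table. Both groups were WT bEnd.3 cells. The mitochondria group (3 libraries) received, in 100 µl of medium, mitochondria taken from the mouse line MLO-Y4, a model of osteocytes, and the control group (3 libraries) received the same volume without them. RNA was collected at 24 h. The labels name a single recipient line, so cell lines are not replicated, and they do not say whether the replicates are separate cultures. The p-values then measure only the spread between these libraries, which may be technical.

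Notch signalling passes between touching cells. A Jagged or Delta-like ligand on one cell binds a Notch receptor on its neighbour, the ligand's endocytosis pulls on the receptor, and the proteases ADAM10 and gamma-secretase release the receptor's intracellular domain. In the nucleus that domain joins the DNA-binding protein RBPJ and Mastermind to switch on target genes, among them the Hes and Hey repressors, and in vessels the pathway is known for arterial fate, the choice between tip and stalk cells, and the maturation of mural cells.

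The promoters printed here belong to a pair of textbook targets that were at or near 0 in these cells and to both receptors whose levels did not overlap between the groups. Windows of 250 bases before the annotated start were taken from RefSeq (GRCm38.p6), 5′ to 3′ on the strand of the gene. A window was matched for 8 of the 10 members (all but Hes1 and Hey1), 9 windows in all because Dll1 has 2. The RefSeq start is not always the start of the gene as deposited. It lies 12841 bases from that start for Notch1 and 1049 bases from it for 1 of the Dll1 windows. The RBPJ motif GTGGGAA was searched on both strands, where it reads TTCCCAC on the other. It was in 5.42% of 32851 such windows across the genome and in 0 of the 9 member windows, which says only that these letters are not in these windows. Hes5 (chr4:154960673-154960922, plus strand) holds it 2 times, beginning 226 and 83 bases before the start, and Hey2 (chr10:30842784-30843033, minus strand) holds it once, beginning 207 bases before the start. The window of Nrarp, a further target that was searched, holds it 0 times. Capitals mark the motif in the sequences of Hes5 and Hey2.
Hes5: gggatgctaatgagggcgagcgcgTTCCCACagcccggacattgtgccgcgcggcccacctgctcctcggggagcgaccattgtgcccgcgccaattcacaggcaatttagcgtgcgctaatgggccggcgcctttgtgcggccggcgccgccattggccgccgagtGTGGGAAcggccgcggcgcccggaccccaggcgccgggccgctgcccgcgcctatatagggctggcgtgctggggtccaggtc
Hey2: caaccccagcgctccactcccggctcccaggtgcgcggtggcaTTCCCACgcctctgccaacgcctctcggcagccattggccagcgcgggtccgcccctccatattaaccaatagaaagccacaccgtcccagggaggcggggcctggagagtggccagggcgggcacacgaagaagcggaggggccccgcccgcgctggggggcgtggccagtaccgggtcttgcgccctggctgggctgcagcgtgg
In the receptor promoters, which lack the motif, capitals mark CG dinucleotides, the sites of DNA methylation in mammals. Notch3 (chr17:32166891-32167140, minus strand) has 17 of them and Notch4 (chr17:34564045-34564294, plus strand) has 4, against a median of 6 over all windows. Notch2, the most abundant receptor here, has 34, a number that 3.53% of all windows reach.
Notch3: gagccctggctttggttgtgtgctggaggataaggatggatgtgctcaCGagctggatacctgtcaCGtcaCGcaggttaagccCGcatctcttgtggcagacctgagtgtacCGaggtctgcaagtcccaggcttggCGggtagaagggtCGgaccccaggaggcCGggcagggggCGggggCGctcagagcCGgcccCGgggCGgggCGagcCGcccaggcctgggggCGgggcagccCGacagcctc
Notch4: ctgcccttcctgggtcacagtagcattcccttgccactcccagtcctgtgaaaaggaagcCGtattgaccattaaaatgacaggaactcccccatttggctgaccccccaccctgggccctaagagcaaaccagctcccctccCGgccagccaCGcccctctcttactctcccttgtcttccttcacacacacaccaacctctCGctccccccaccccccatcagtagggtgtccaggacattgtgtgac

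The cells expressed all 4 receptors, led by Notch2, while the ligands were low. Levels are given first as FPKM, fragments scaled by gene length and library size, as the authors deposited them. Notch2, a broadly expressed receptor, stood at 14.2, 15.3 and 13.1 FPKM in control replicates 1 to 3 and at 13.1, 14.98 and 13.6 FPKM in mitochondria replicates 1 to 3. Its groups overlapped. Notch3, a receptor best known from the smooth muscle cells and pericytes around vessels, stood at 7.24, 7.31 and 7.71 FPKM in control and 9.10, 9.77 and 8.90 FPKM in mitochondria libraries. Every mitochondria library was above every control library. Notch1, the receptor needed for embryonic vessel formation, had 3.30, 3.60 and 2.92 FPKM in control and 3.46, 3.78 and 3.00 FPKM in mitochondria libraries, with overlapping groups and replicate 3 the lowest in each. Notch4, an endothelial receptor, had 1.997, 1.53 and 1.94 FPKM in control and 2.55, 2.27 and 2.74 FPKM in mitochondria libraries. Here too the groups were apart, and replicate 2 was the lowest of each.

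Among the ligands, Dll1 and Jag1 were at similar levels and Dll4 was close to the limit of detection. Dll1, a Delta-like ligand, had 1.70, 1.43 and 1.38 FPKM in control and 1.96, 2.11 and 1.86 FPKM in mitochondria libraries, which did not overlap. Jag1, the Jagged ligand of stalk cells and mural cells, had 1.52, 1.80 and 1.58 FPKM in control and 1.69, 1.87 and 1.64 FPKM in mitochondria libraries, with overlap. Jag2 lay between 0.133 and 0.244 FPKM over the 6 libraries, from 77 to 136 estimated counts, and its groups overlapped. Dll4, the ligand of arterial and tip cells, had 8, 10 and 0 estimated counts in control and 15, 21 and 6 in mitochondria libraries. A floor of 12 counts per library was used, 3 steps of 4 counts, because low counts in this table are multiples of 4 more often than an even spread gives, though most are not. The size of 1 fragment in counts is thus not known exactly. Of the Dll4 values 4 of 6 were under that floor, and no fold is given.

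Of the targets, Hes1 was well expressed and Hey1 was low. Hes1, the main Hes repressor downstream of Notch, had 6.31, 8.04 and 7.60 FPKM in control and 5.86, 7.004 and 4.89 FPKM in mitochondria libraries. The highest mitochondria library lay above the lowest control library, so the groups overlapped. Hey1, the target typical of endothelium, had 0.481, 0.582 and 0.846 FPKM in control and 0.527, 0.567 and 0.277 FPKM in mitochondria libraries. It was lowest in mitochondria replicate 3, where Hes1 was also lowest.

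**Figure D1:**
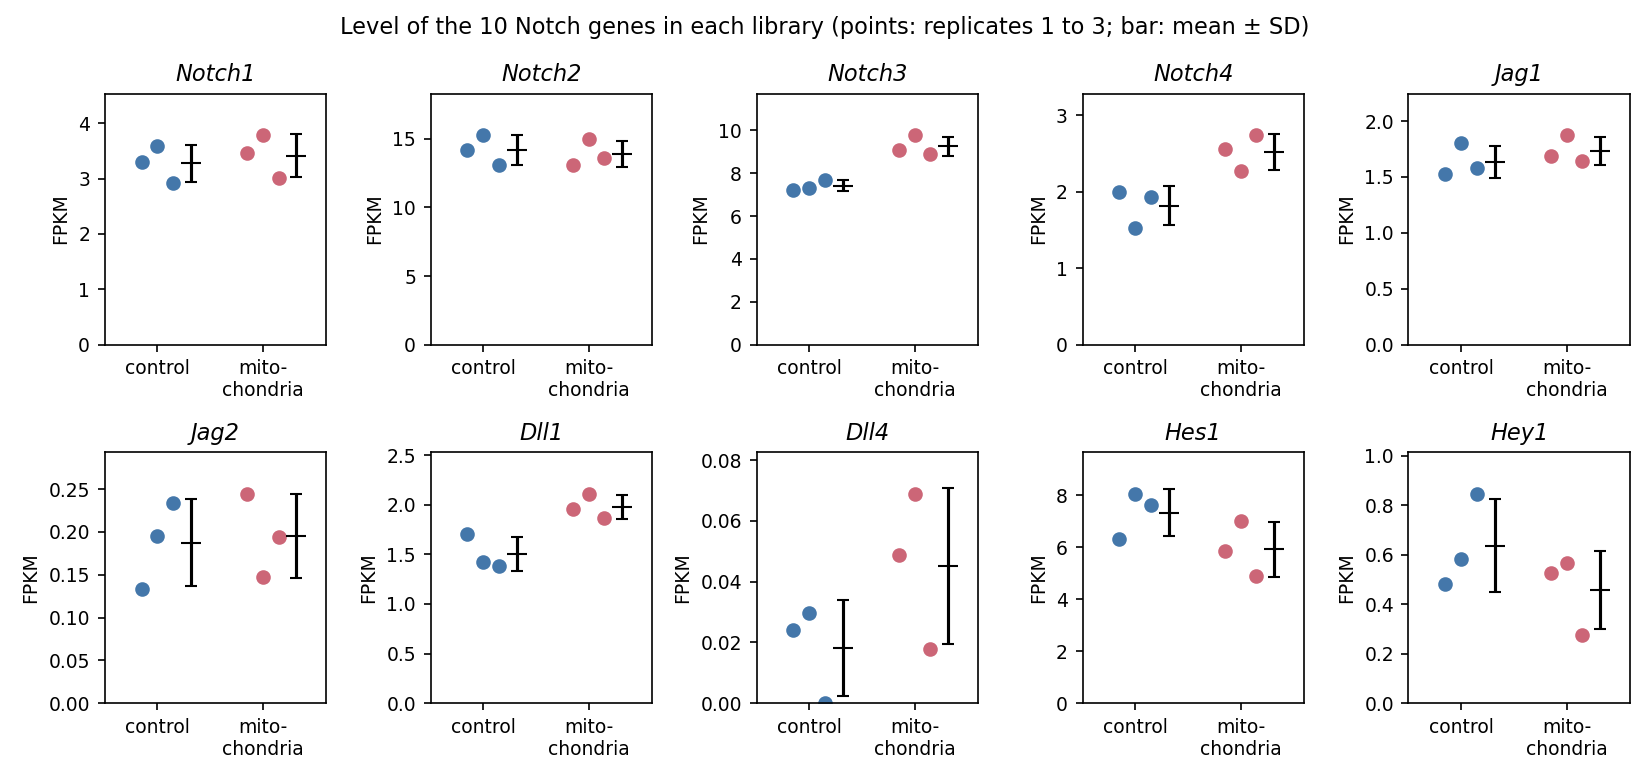
FPKM of each of the 10 genes (y axis, each from 0) in control (blue) and mitochondria (red) libraries; points are replicates 1 to 3 from left to right and the black bar is the mean ± SD of 3 libraries. The points of the groups are apart for Notch3, Notch4 and Dll1 and overlap for the other genes; for Dll4, 1 control library is listed at 0.

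In the order of mean FPKM over the control libraries, Notch2 (14.2 ± 1.09, SD, n = 3) was followed by Notch3 (7.42 ± 0.252), Hes1 (7.32 ± 0.901), Notch1 (3.27 ± 0.336), Notch4 (1.82 ± 0.256), Jag1 (1.63 ± 0.147), Dll1 (1.502 ± 0.174), Hey1 (0.636 ± 0.189) and Jag2 (0.188 ± 0.0508). Neighbours with overlapping libraries were Notch3 and Hes1, Notch4 and Jag1, and Jag1 and Dll1. In the mitochondria libraries Notch3 averaged 9.26 ± 0.458 and Hes1 5.92 ± 1.06 FPKM (SD, n = 3) and no longer overlapped, Dll1 came before Jag1, and those last were the sole neighbours with overlap.

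The order of Hes1 and Notch3, and of Jag1 and Dll1, in the control libraries depends on the length that FPKM divides by, while Notch1 keeps its place with a higher level. For every member but Dll4, whose counts are too few, the deposited counts and FPKM imply a fixed gene length, close to the summed length of all annotated exons. For Notch1 it was 14246 bases against 9488 bases for its longest protein-coding transcript in GENCODE M21. For Hes1 it was 2040 against 1468 bases, and for Notch3 8089 against 8016 bases. Scaled to the longest coding transcript, Hes1 averaged 10.2 ± 1.252 and Notch3 7.49 ± 0.254 in control libraries, without overlap and in the opposite order to FPKM. Dll1 (1.78 ± 0.206) likewise came before Jag1 (1.70 ± 0.152) there, and that pair overlapped under both scalings (SD, n = 3). In mitochondria libraries the scaled levels of Hes1 (8.22 ± 1.47) and Notch3 (9.34 ± 0.462) overlapped (SD, n = 3). This scaling was chosen after seeing the data, and it leaves every difference between the groups as it was, since each gene is multiplied by 1 constant.

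**Figure D2:**
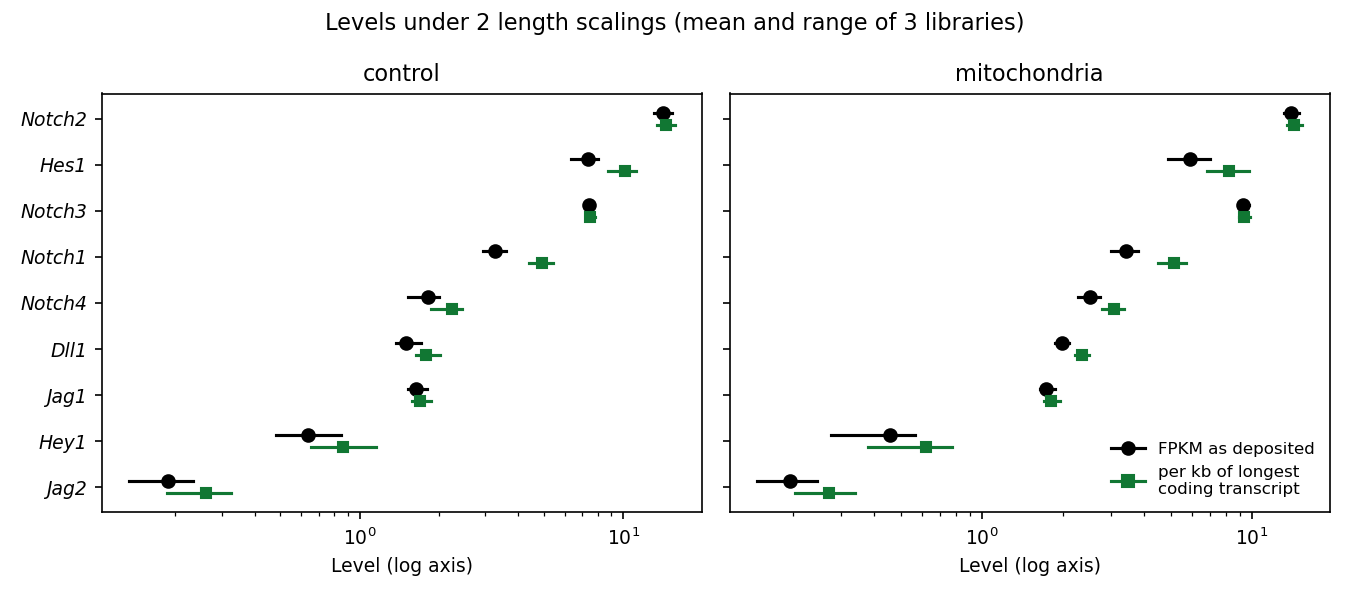
Level of 9 members (all but Dll4; x axis, log scale) as deposited FPKM (black circles) and per kilobase of the longest coding transcript (green squares), with the mean and range of 3 control libraries at left and 3 mitochondria libraries at right. Notch1, Hes1, Hey1 and Jag2 move up with the second scaling, while Notch2, Notch3 and Jag1 stay nearly in place.

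Notch2 held about the same level in both groups but a smaller share of the summed receptor FPKM in the mitochondria libraries. The sum of the 4 receptors was 26.7 ± 1.02 FPKM in control and 29.1 ± 1.49 FPKM in mitochondria libraries. Notch2 made up 53.0% ± 2.05 of it in control and 47.7% ± 1.12 in mitochondria libraries, and Notch3 27.9% ± 1.93 and 31.8% ± 0.353 (SD, n = 3). Over single libraries the share of Notch3 ran from 26.4% to 30.1% in control and from 31.5% to 32.2% in mitochondria libraries. The share of Notch4 was 6.85% ± 1.16 and 8.71% ± 1.196, and that of Notch1 12.2% ± 0.798 and 11.7% ± 0.939. With levels per coding transcript, Notch1 held 16.8% ± 1.06 in control libraries and Notch2 49.8% ± 1.84 (SD, n = 3). These shares are a description with no test, as the shares of 1 library sum to a fixed whole.

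**Figure D3:**
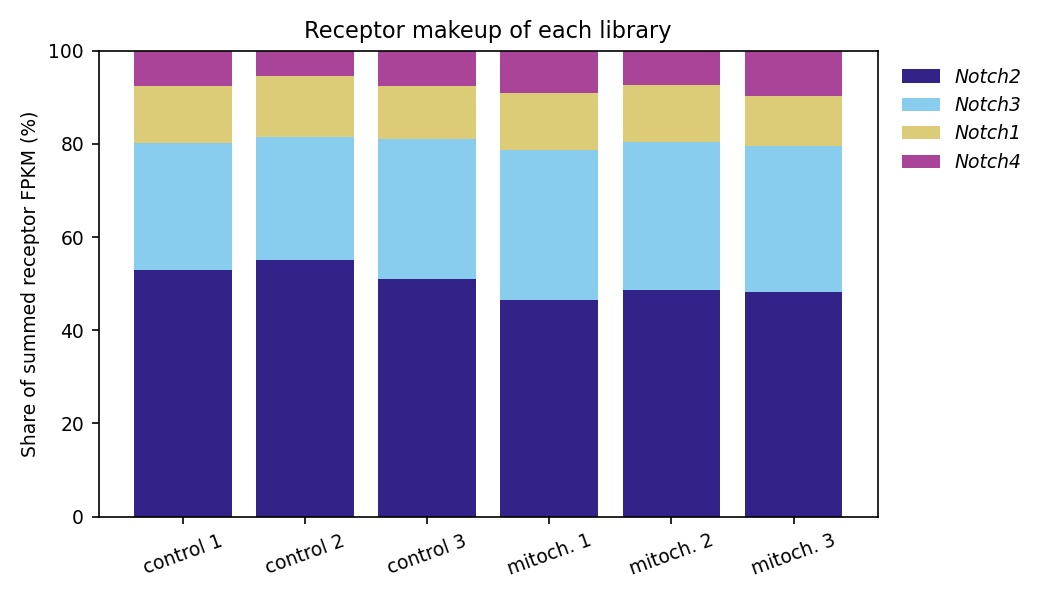
Share of the summed FPKM of the 4 receptors held by each (y axis, percent) in each of the 6 libraries (x axis). Notch2 is the largest part in every library, 51.0% to 55.1% in control and 46.5% to 48.6% in mitochondria libraries.

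None of the 10 members passed the test between the groups. The 7 with a mean of at least 1 FPKM were tested with edgeR's quasi-likelihood test, fitted on all 12774 such genes, and 0 of 7 had a Benjamini-Hochberg adjusted p under 0.05, where 0.164% of all tested genes passed in either direction. With the replicate number as a block that share was 0.0%. At an unadjusted p under 0.05 there were 3 of 7 members, all higher with mitochondria, against 6.79% of all tested genes higher and 6.24% lower at that p. The CPM of the groups did not overlap for the same 3, Notch3, Notch4 and Dll1, while 10.8% of all tested genes were higher without overlap. The members were chosen with earlier results of these data known, so a share above these backgrounds supports nothing further.

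Notch3 had the smallest p of the 10. In CPM, counts scaled by TMM-adjusted library size and not by gene length, it stood at 66.6, 67.3 and 70.7 in control libraries and at 83.1, 89.1 and 80.8 in mitochondria libraries. The fold was 1.24 with a 95% interval of 1.13 to 1.36 (edgeR adjusted p = 0.187), and all 3 mitochondria libraries were above the controls. DESeq2 called Notch3 higher (adjusted p = 0.00181), alone among the members, where it called 2.93% of genes in either direction and 1.69% higher. Over all settings the adjusted p of Notch3 ran from 0.00181 to 0.414. Limma on log2(FPKM + 1) called 0 of 7 members, against 0.133% of genes, and gave Notch3 an adjusted p of 0.207. Leaving out a library in turn kept the log2 fold change of Notch3 between 0.26 and 0.34.

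Notch4 averaged 16.7 ± 2.34 CPM without and 23.0 ± 2.06 CPM with mitochondria (SD, n = 3), a fold of 1.37 with a 95% interval of 1.11 to 1.70 (edgeR adjusted p = 0.274; DESeq2 adjusted p = 0.0544; range over the settings 0.0544 to 0.519). Its fold was the largest of the 7. Dll1 had 7.24 ± 0.864 and 9.44 ± 0.602 CPM (SD, n = 3), a fold of 1.30 with an interval of 1.06 to 1.61 (edgeR adjusted p = 0.305). These intervals are for single genes and are not adjusted for the number of genes tested. The summed level of 15 endothelial markers, 1 of them at 0, also did not overlap between the groups, at 762 to 815 CPM in control libraries and 827 to 897 CPM in mitochondria libraries. The markers did not lean one way. Flt1 (26.0 ± 3.70 without and 33.3 ± 2.94 FPKM with mitochondria), Tie1 (5.40 ± 0.510 and 6.88 ± 0.257) and Egfl7 (3.92 ± 0.304 and 4.71 ± 0.749) had higher means, while Eng, the highest by FPKM, had a lower one (69.96 ± 7.84 and 59.7 ± 2.14; SD, n = 3), as had the low Pecam1, Cdh5, Tek, Emcn and Esam. Kdr, Erg, Vwf, Sox18 and Robo4, also low, had higher means. Of the 15 markers 4 were tested and 0 were called by edgeR. The part of these markers in the Notch4 and Dll1 values was not tested.

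Notch1, Notch2 and Jag1 differed by less than the spread between replicates. The fold of Notch1 was 1.03 (95% interval 0.857 to 1.248), that of Notch2 0.972 (0.855 to 1.11) and that of Jag1 1.05 (0.879 to 1.26), with edgeR adjusted p-values of 0.885, 0.857 and 0.808. For Notch1 and Notch2 the sign itself changed when single libraries were left out of the fit without pairing. Between libraries of the same replicate number, Notch1 and Jag1 were higher with mitochondria in 3 of 3 pairs, and with the replicate block their edgeR adjusted p-values were 0.628 and 0.684. Hes1 averaged 17.0 ± 2.08 CPM without and 13.6 ± 2.46 CPM with mitochondria (SD, n = 3), a fold of 0.802 with an interval of 0.614 to 1.05 (edgeR adjusted p = 0.460). Hes1 was lower in 3 of 3 pairs (edgeR adjusted p = 0.317 with the replicate block). Its log2 fold change was -0.32, and -0.19 without mitochondria replicate 3, the library with the lowest Hes1. The share of all tested genes with a single sign in 3 of 3 pairs was not computed, so the pair counts are a description only.

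The other 3 members had a mean under 1 FPKM and entered only the fit without a filter. Hey1 averaged 2.39 ± 0.695 CPM without and 1.70 ± 0.576 CPM with mitochondria (SD, n = 3), a fold of 0.712 with a wide 95% interval of 0.405 to 1.2497 (edgeR adjusted p = 0.615). Jag2 had 1.52 ± 0.403 and 1.55 ± 0.386 CPM (SD, n = 3; fold 1.02, interval 0.622 to 1.69; edgeR adjusted p = 0.994). For Dll4 the depth does not allow a statement on a difference, as 12 counts are 0.165 to 0.185 CPM and its group means were 0.0835 and 0.203 CPM.

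**Figure D4:**
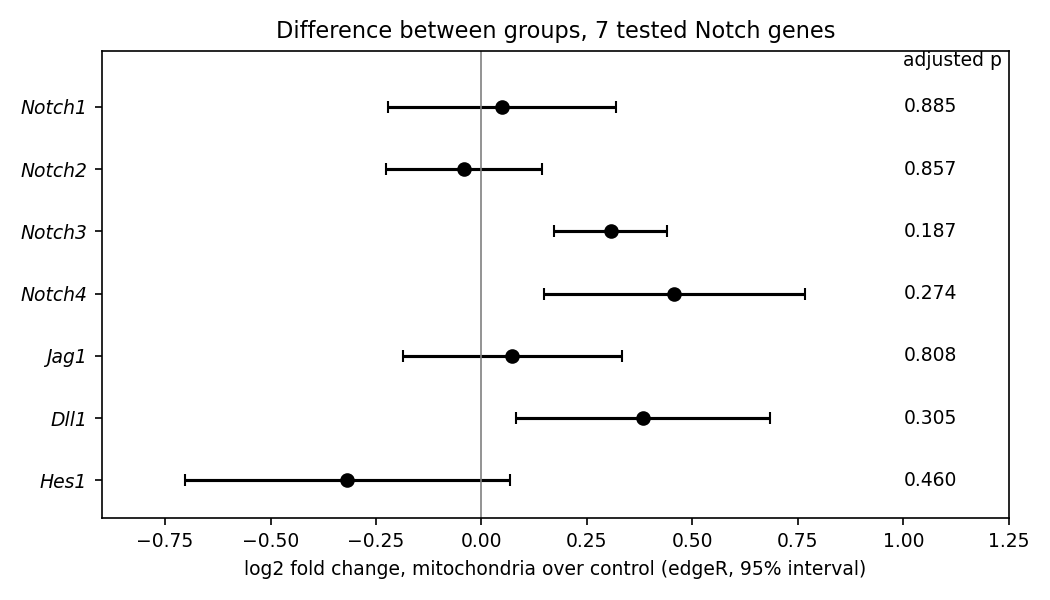
Log2 fold change of the 7 tested members, mitochondria over control (x axis; points with 95% intervals from edgeR), with the adjusted p over all 12774 genes at right. The unadjusted intervals of Notch3, Notch4 and Dll1 lie above 0, and no adjusted p is under 0.05.

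The members lie on 5 chromosomes (coordinates in GRCm38 as deposited). Notch3 (ENSMUSG00000038146) spans 32120820 to 32166852 on the minus strand of chromosome 17 with 33 exons in its longest coding transcript. Notch4 (ENSMUSG00000015468, 34564268 to 34588503, plus strand, 30 exons) and Dll1 (ENSMUSG00000014773, 15367354 to 15376872, minus strand, 11 exons) are on the same chromosome. Hes1 (ENSMUSG00000022528) spans 30064384 to 30067796 on the plus strand of chromosome 16 with 4 exons. Notch1, Jag1 and Dll4 are on chromosome 2, Notch2 and Hey1 on chromosome 3 and Jag2 on chromosome 12. Notch3 overlaps Gm17276 on the opposite strand. The kit was stranded, but the strand setting of the counting is not given in the sources used here. Whether the reads of both genes were kept apart is thus not known. Gm17276 was listed at 28 to 60 counts against 4582 to 6157 for Notch3. Among other genes that overlap a member, the highest count in any library was 60, for 0610009E02Rik at the end of Notch1, and Gm20462 inside Notch4 had 0 in all 6 libraries.

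The wider pathway was read from a list of 69 genes written by role from textbook knowledge, of which 58 were tested. By edgeR 0 were called in either direction, with 29 higher and 29 lower, a median log2 fold change of -0.00028, beside -0.0016 over all tested genes, and an unadjusted p under 0.05 for 7 higher and 2 lower, where 6.79% and 6.24% of all tested genes had one. DESeq2 called 2 of the list, both higher, Cdkn1a and Numbl, where it called 2.93% of genes in either direction and 1.69% higher. Limma called 0 of the list. The CPM of the groups did not overlap for 10 higher and 3 lower genes of the list, against 10.8% and 10.6% of all tested genes. Of 49 genes that carry the KEGG term for Notch signalling in the deposited table, 40 were tested, 20 higher and 20 lower, with 0 called by edgeR, 8 higher and 1 lower at an unadjusted p under 0.05, and 2 called by DESeq2, Notch3 and Numbl. Without the members, 33 of 40 KEGG genes were tested, 15 higher and 18 lower, with 5 higher and 1 lower at that unadjusted p and 1 called by DESeq2.

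Upstream of the receptor's release, the 4 genes of ligand endocytosis had 3 higher and 1 lower. Mib2, a ubiquitin ligase that drives ligand uptake, averaged 35.1 ± 1.55 CPM without and 41.2 ± 2.42 CPM with mitochondria (SD, n = 3; fold 1.17, edgeR adjusted p = 0.289). Of 9 tested genes of receptor cleavage 6 were higher and 3 lower, with log2 fold changes from -0.21 to 0.34. Of 4 tested glycosylation genes 3 were lower, among them Lfng, the Fringe enzyme that tunes which ligand a receptor answers, at 13.6 ± 0.0208 and 11.5 ± 1.69 CPM (SD, n = 3; fold 0.842, edgeR adjusted p = 0.453). In receptor trafficking 3 of 9 were higher, led by Numbl, a Numb-like endocytic antagonist of Notch, at 32.8 ± 1.38 and 38.8 ± 0.740 CPM (SD, n = 3; fold 1.18, edgeR adjusted p = 0.247, DESeq2 adjusted p = 0.0342). The 10 genes of the list that were higher without overlap were Egfl7, Adam17, Mib2, Neurl1a, Numbl, Dtx2, Spen, Hdac1, Tle3 and Cdkn1a, and the 3 lower ones were Lfng, Hdac2 and Efnb2.

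In the nucleus, 3 of 9 activator genes were higher and 6 lower, and their log2 fold changes stayed within -0.16 and 0.10. Rbpj itself stood at 114.0 ± 4.90 and 107.0 ± 9.60 CPM (SD, n = 3; fold 0.938, edgeR adjusted p = 0.635). Of 13 co-repressor genes 7 were higher and 6 lower. Hdac2, a histone deacetylase of co-repressor complexes, averaged 126.9 ± 2.50 CPM without and 116.4 ± 2.60 CPM with mitochondria (SD, n = 3; fold 0.917, edgeR adjusted p = 0.305). The 3 genes of intracellular domain turnover had 1 higher and 2 lower.

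Among 10 further targets, 6 were tested, 4 higher and 2 lower. Cdkn1a, which encodes the cell-cycle inhibitor p21 and also answers to p53, had the smallest p of the list. Its FPKM was 15.6, 14.9 and 15.9 in control and 18.8, 19.99 and 19.5 in mitochondria libraries, which did not overlap. It averaged 62.5 ± 2.11 and 77.8 ± 2.27 CPM (SD, n = 3; fold 1.24, edgeR adjusted p = 0.145, DESeq2 adjusted p = 0.0001). Efnb2, the arterial ephrin ligand, had 67.6 ± 8.49 and 52.0 ± 6.27 CPM (SD, n = 3; fold 0.770, edgeR adjusted p = 0.305), lower in every mitochondria library. Nrarp, a feedback inhibitor that Notch induces, stood at 2.96 ± 0.758 and 3.28 ± 0.903 CPM (SD, n = 3) with overlapping groups. Hes5, whose promoter is printed above, was listed at 0 in all 6 libraries, and Hey2 at 0 counts in the 3 control libraries and 7, 16 and 16 counts in the mitochondria libraries, at or near the floor of 12. Heyl had at most 8 counts.

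**Figure D5:**
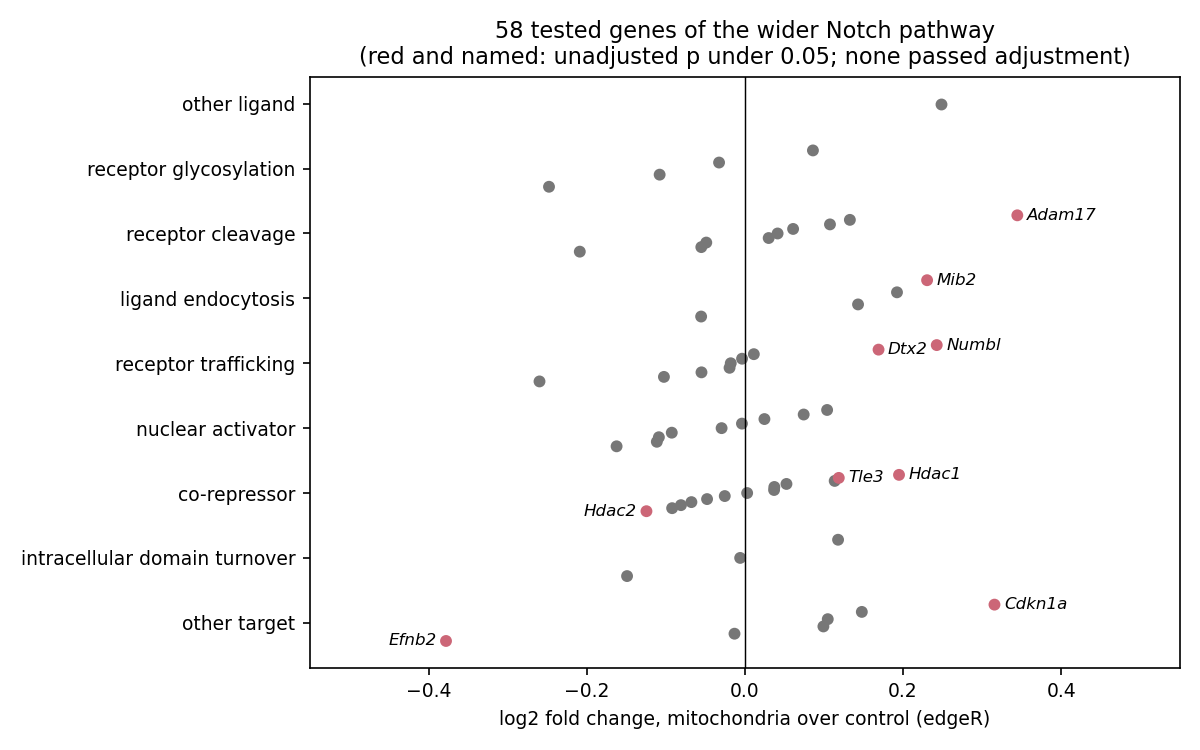
Log2 fold change by edgeR, mitochondria over control (x axis), of the 58 tested genes of the pathway list by role (y axis); each point is a gene, and red points with names had an unadjusted p under 0.05. Points lie on both sides of 0 in 8 of the 9 roles, the exception being the role with 1 tested gene, and none passed adjustment by edgeR.

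Genes of arterial and venous identity, where Notch is known to act, gave no call by edgeR or DESeq2. Of 13 listed 7 were tested, with 3 higher and 4 lower, a median log2 fold change of -0.084, and Efnb2 alone under an unadjusted p of 0.05. Of the arterial genes, Unc5b was the highest by FPKM, at 22.1 ± 2.60 without and 22.9 ± 0.783 with mitochondria (SD, n = 3). Gja4 had 51 to 111 counts, Gja5 and Sox17 had at most 22 counts and Cxcr4 was listed at 0 throughout. Nrp1, a VEGF co-receptor, and Ephb4, the venous receptor of Efnb2, had folds of 1.09 and 1.08 (edgeR adjusted p = 0.589 and 0.620). Nr2f2, the venous transcription factor COUP-TFII that represses Notch genes, had 17.5 ± 0.904 and 13.8 ± 2.61 CPM (SD, n = 3; fold 0.788, edgeR adjusted p = 0.404), without overlap.

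The pathway genes whose profile over the 6 libraries lay nearest to a member's were found by the root mean square difference of log2 CPM after centring each gene. For Notch2 these were Dtx4 (0.023) and Tle1 (0.050), where the median over the 58 genes was 0.12. For Dll1 they were Cdkn1a (0.11) and Numbl (0.13), against a median of 0.23. For Hes1 they were Psenen (0.14) and Dtx3l (0.15), against 0.26. A gene flat over the 6 libraries would lie 0.089 from Notch2, 0.22 from Dll1 and 0.25 from Hes1. The nearest 2 of 58 lie under their median by construction. Distances to all tested genes were not computed, so these are a description only.

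Library totals ran from 65394770 to 73376834 estimated counts. The endothelial label was only partly borne out, as 10 of 15 endothelial markers were under 1 FPKM in all 6 libraries and Cldn5 was at 0, while Eng, Flt1, Tie1 and Egfl7 were expressed. Of 10 mural markers, beside which Notch3 is usually read, 7 were under 1 FPKM in every library and Cnn1 was at 0, while Pdgfrb (18.4 ± 7.28 without and 14.99 ± 3.17 FPKM with mitochondria) and Des (9.42 ± 0.136 and 10.1 ± 0.811; SD, n = 3) were expressed, and the summed level was 131 to 219 CPM in control and 125 to 170 CPM in mitochondria libraries; their part in the Notch3 values was not tested. Acta2, also a mural marker, averaged 1.19 ± 0.651 FPKM without and 0.959 ± 0.130 FPKM with mitochondria (SD, n = 3). In bulk RNA fewer cells of a type and less RNA per cell cannot be told apart. The osteocyte genes Dmp1, Mepe and Ibsp had 0 counts in all 6 libraries, while Col1a1, Alpl, Gja1, Runx2 and Fgf23 of the same list, several of them also genes of other mesenchymal cells, averaged 21.3, 15.02, 10.4, 3.94 and 1.41 FPKM in control libraries. The 12 listed genes summed to 325 to 476 CPM in control and 372 to 409 CPM in mitochondria libraries. Summed pancreatic acinar markers, 1 of 22 at 0, were 160 to 264 CPM in control and 57.2 to 62.9 CPM in mitochondria libraries. Of the 16 tested, 10 were called lower by edgeR, among 13 called lower of all 12774 tested genes. Many, such as Ctrb1 (means of 31.5 without and 0.0001 FPKM with mitochondria), passed the filter only through the control libraries, so these calls support nothing further. Cela1 (25.2 and 21.8) and Pnliprp2 (1.09 and 1.17) were present in both groups. The 15 hepatocyte markers summed to 52.0 to 67.3 CPM in control libraries and to 4.57, 49.0 and 42.7 CPM in mitochondria replicates 1 to 3. A fit without these acinar and hepatocyte genes left the counts of Notch3 unchanged. Its log2 fold change was again 0.31 there (edgeR adjusted p = 0.220), which cannot show whether such transcripts bear on Notch3.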

How the data were processed

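The table holds 1 row per gene with estimated counts and FPKM for 6 libraries, 3 per group, taken by title. The build GRCm38 and the tools edgeR, DESeq2, StringTie 2.1.6, HISAT2 2.2.1 and cutadapt 1.9, no roles given, stand in the submitters' processing notes. The kit was stranded, per the labels' protocols. The deposited FPKM values, per the file headers, list a count of 0 as 0.0001, and their implied gene lengths are near the summed exons of GENCODE M21. The deposited estimated counts are whole numbers, and 36.6% of those from 1 to 20 are multiples of 4 (25% if spread evenly). A fragment may therefore often give 4 counts, which was not tested further, and a floor of 12 was used. Intervals and floors cover counting error or replicate spread only.

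Counts were tested with edgeR 4.0.16 (quasi-likelihood, TMM, no covariate) in R 4.3.3 on 12774 genes with a mean FPKM of at least 1, with Benjamini-Hochberg adjustment over all of them. CPM are edgeR's, scaled by the total over tested genes times the TMM factor. DESeq2 1.42.0, limma 3.58.1 and 17 settings in all were tried, and the fits were tested on simulated data. There edgeR called 8% of 50 genes given a true fold of 1.25 and 36% of 50 given 1.5. DESeq2 called 18% and 74% of them. Folds of the size seen for the members are thus mostly missed by the edgeR test. Deviations of same-numbered libraries from their group means correlated at 0.155, 0.101 and 0.231 across genes, all over 0.1. Those of other pairs correlated at -0.216 to 0.0839. Deviations cancel within each group, so positive same-numbered pairs force lower values on the other pairs, and this contrast is partly built in. That pairing is only a reading of the data, and the labels give no reason for it. Named genes are all members, called pathway genes and the 3 smallest p in each direction, the 2 smallest for arterial and venous genes, and the 2 nearest profiles of the top receptor, ligand and target by FPKM. Any other gene was picked with its values in view. The members and lists were chosen with earlier results of these data known. Motifs were searched in RefSeq windows with Python 3.11.15.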

Additional observations from a re-analysis of the deposited data

How the results depend on the processing

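Of 115 log2 fold changes of the 7 tested members under 17 other settings, 111 kept their direction and their side of the threshold. Notch1 turned to -0.028 without control replicate 3 and -0.032 without mitochondria replicate 2, from 0.049, and Notch2 to 0.017 without control replicate 2, from -0.041. Leaving out libraries in turn gave -0.032 to 0.14 for Notch1 and -0.099 to 0.017 for Notch2. The cause was not tested. DESeq2 called 1 member, Notch3, 2 pathway genes and 360 genes in all, where edgeR called 0, 0 and 21. Over all genes edgeR called 8 with a mean FPKM of at least 5, 7 without acinar and hepatocyte markers, 0 with the replicate block (2153 at an unadjusted p under 0.05), and 1 (without control replicate 1) to 27 when libraries were left out in turn, with 12 without control replicate 3. Members and pathway genes called stayed at 0 when libraries were left out. The block changed no call of a member. With levels per coding transcript the ratio of Hes1 to Notch3 moved from 0.986 to 1.36 in control and from 0.637 to 0.877 in mitochondria libraries. Depth limits Dll4, Hey2 and Heyl, which lie near the floor.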

Other observations

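Adam10, the protease that makes the first ligand-induced cut in Notch, was uneven within both groups. It had 39.4, 38.9 and 22.9 FPKM in control and 22.04, 38.2 and 38.6 FPKM in mitochondria libraries, so that 1 library of each group stood far below the others, and its log2 fold change was -0.049 (edgeR adjusted p = 0.957). Poglut1, which adds glucose to the receptor's EGF repeats, had 16.4, 16.8 and 11.001 FPKM in control and 16.6, 9.93 and 17.1 FPKM in mitochondria libraries. Control replicate 3 was the low control library for both genes, while the low mitochondria library was replicate 1 for Adam10 and replicate 2 for Poglut1.

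Within libraries the ratio of Hes1 to Notch3, picked after the values were seen, was 0.871, 1.10 and 0.986 in control and 0.644, 0.717 and 0.549 in mitochondria libraries, in FPKM. The groups did not overlap, and no share of such ratios over all genes was computed. Notch3 by itself was already apart and Hes1 had a lower mean with mitochondria, so the ratio is no separate result. The ratio of Hes1 to Notch2 did overlap, at 0.446, 0.527 and 0.581 against 0.446, 0.468 and 0.360. Of the other ratios computed, Notch3 to Notch2 and Dll1 to Jag1 did not overlap, and Notch3 to Notch1 did.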
